A study of Mus musculus with 19 samples.

Results

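The genes described here build and run the primary cilium, the single non-motile antenna of a cell. They were taken by symbol from the array's annotation: the numbered Ift and Bbs families, Tctn1 to Tctn3, the cytoplasmic dynein-2 genes, Kif3a to Kif3c and Kif17, the Evc pair, and named genes of the transition zone, basal body and ciliary membrane. The rule used no measured value. It found 80 probe sets of 48 gene symbols, out of 45037 probe sets and 18193 genes on the array. One of the symbols, B9d1os, is a transcript antisense to B9d1 that the name pattern also picks, and its only probe set was too dim to test. Of the 80 probe sets, 73 were bright enough to test, and they covered the other 47 genes, out of 31143 probe sets and 13454 genes tested.

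The tumours were medulloblastomas of the genotype Ptch+/-p53-/-, which all groups share. The mice of origin had 1 inactivated allele of Ptch, the receptor that holds Hedgehog signalling back, and no p53, and the state of the other Ptch allele in the tumours was not analysed here. Cells dissociated from tumours were grafted under the skin of the flank of nude mice, and treatment began about 10 days later. The 3 control tumours received vehicle, and the labels call them sensitive. The treated tumours received NVP-LDE225, an antagonist of the Hedgehog transducer Smoothened, with 40 mg/kg for 8 of them and 160 mg/kg for the other 8, and the labels call all of these resistant, so that treatment and resistance form a single contrast. For tumours 6 and 7 of the 160 mg/kg group the source name reads resistant, and for the other treated tumours it reads treated. The graft is a subcutaneous model that keeps no cerebellar surroundings, and the sources used here do not give the length of dosing. The labels do not say that each array came from a separate animal, and p-values therefore measure only the spread between these samples.

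In mammalian cells Hedgehog signalling runs through the primary cilium. Patched leaves the cilium when ligand arrives, Smoothened enters it, and Gli proteins pass through its tip on the way to becoming activators or repressors. Intraflagellar transport carries cargo along the axoneme in trains of IFT-B and IFT-A complexes, outward by kinesin-2 and back by dynein-2. The transition zone is the gate at the cilium base, the BBSome moves membrane proteins out through it, and granule neuron precursors of the cerebellum, from which Hedgehog medulloblastoma is known to arise, carry such a cilium.

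The libraries were compared before the groups were formed. Precision is limited by the number of arrays. Vehicle tumour 3 stood apart, with the highest median signal (49.7 against 32.7 to 42.5 on the other arrays), the narrowest spread of log2 signal and the lowest median correlation with the other arrays (0.93), and 160 mg/kg tumour 2 had the next lowest correlation (0.93). The tissue of origin was checked against 12 markers of granule neuron precursors, all of which were measured. Their summed signal was 11641 to 12477 in vehicle tumours, against 16122 to 21425 at the lower dose and 13742 to 23200 at the higher, with 5 of 12 higher in treated tumours. The summed signal of 15 neuron maturation genes was also higher with treatment, 6938 to 8555 in vehicle tumours against 9051 to 18517 in treated ones, with 8 of 15 called. Of 6 astrocyte markers 2 were called higher, Fabp7 and Aldoc, and the list's summed signal was 1061 to 1818 in vehicle tumours and 348 to 3782 in treated ones. Of 4 skin epithelium markers, Krt14 and Krt1 were too dim to test. The other 2, Krt5 and Krt10, summed to 5125 to 5774 in vehicle tumours. Their sum was 2241 to 5298 at the lower dose and 191 to 3362 at the higher, with a median log2 difference of -0.89. Of these 2 markers 0 were called (2 at an unadjusted p under 0.05). Over all genes tested 2.84% were called higher and 2.45% lower in treated tumours, and 23.3% had an unadjusted p under 0.05 in limma. Of 21 markers of multiciliated cells only 5 were bright enough to test, and the defining markers Foxj1, Tekt2, Dnah5 and Hydin were too dim. Summed over those 5 markers, the signal was 239 to 271 in vehicle tumours, against 153 to 227 at the lower dose and 134 to 249.7 at the higher. Of 10 skeletal muscle markers 0 were called (1 at an unadjusted p under 0.05). Their sum was 675.5 to 3449.5 in vehicle tumours and 156.9 to 20134 in treated ones, highest in 40 mg/kg tumour 5. Of 8 macrophage markers 0 were called. They summed to 821.2 to 1417.5 in vehicle tumours and 578.5 to 5195 in treated ones, highest in 160 mg/kg tumour 6. The part of these differences in marker signal in the values of the cilium genes was not tested. In bulk tumours fewer cells of a type and less RNA per cell cannot be told apart.

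To place the genes in the genome, the promoters that RefSeq gives for the GRCm38.p6 build were searched for the sites of RFX factors, which are known to switch on cilium genes. Of the 47 genes, 42 had a promoter entry, 250 bases before the start to 50 after it. The paired RFX site was spelled GTTNCCNNGGNAAC or GTTNCCNGGNAAC and searched on both strands. It lay in the promoters of 6 of 42 cilium genes (14.3%), against 0.836% of all genes with a promoter entry. With a looser spelling, GTNNCCNNGGNNAC or GTNNCCNGGNNAC, which takes in every paired site, the shares were 31% and 3.32%. One arm alone, spelled GTTGCC, which can lie inside either paired spelling, was found in 52.4% of the cilium genes and in 14.1% of all genes. Shown here are the 100 bases before the start of 3 genes with a match close upstream, and of the Evc2 and Tulp3 genes, whose signals were the most reduced among those that passed the test below. Capitals mark a match to the looser spelling.
Ift57, chr16:49699194-49699293, plus strand: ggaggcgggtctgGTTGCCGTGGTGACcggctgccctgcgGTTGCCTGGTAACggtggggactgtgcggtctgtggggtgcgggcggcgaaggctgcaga
Mks1, chr11:87853115-87853214, plus strand: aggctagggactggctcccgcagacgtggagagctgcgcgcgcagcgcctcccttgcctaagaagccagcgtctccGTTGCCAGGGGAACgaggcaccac
Tctn2, chr5:124598649-124598748, plus strand: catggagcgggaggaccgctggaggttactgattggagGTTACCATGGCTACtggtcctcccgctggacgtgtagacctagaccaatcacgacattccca
Evc2, chr5:37338378-37338477, plus strand: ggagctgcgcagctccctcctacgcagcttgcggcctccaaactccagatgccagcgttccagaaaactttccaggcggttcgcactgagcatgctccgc
Tulp3, chr6:128355852-128355951, minus strand: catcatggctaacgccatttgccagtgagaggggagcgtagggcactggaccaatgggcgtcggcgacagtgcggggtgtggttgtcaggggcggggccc

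Most cilium genes did not pass the test between treated and vehicle tumours, and a minority fell. Compared with vehicle, 6 of 47 genes fell in the treated tumours, 0 rose and 41 did not pass the test (limma, adjusted p under 0.05 over all probe sets). The genes that fell were Evc2, Tulp3, Tmem231, Ift140, Dync2h1 and Ift74, which belong to the EvC zone, cilium entry, the transition zone, IFT-A, dynein-2 and IFT-B in turn. The 6 genes make up 12.8% of the cilium genes, where 2.45% of all genes tested fell, 2.84% rose and 5.29% passed in either direction. The median log2 difference was -0.15 over the 47 genes and -0.06 over all genes tested, and 31 of 47 (66%) lay below 0, against 57.5% of all genes tested. At an unadjusted p under 0.05, 12 cilium genes (25.5%) were lower and 4 (8.51%) higher, against 13.1% and 10.2% of all genes tested. All 16 treated tumours lay below all 3 vehicle tumours for 3 genes (6.38%, against 2.53% of all genes), which were Tulp3, Tmem231 and Evc, and above them for 0 genes (against 1.99%).

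The count rests on the vehicle arrays and changes with the scaling of the arrays. It was 2 (Evc2 and Tulp3) without vehicle tumour 1, 1 (Tulp3) without vehicle tumour 2 and 0 without vehicle tumour 3, while 1.65%, 1.51% and 0.937% of all genes tested were then called. Without vehicle tumour 3, 10 of 47 genes had an unadjusted p under 0.05 in limma, 9 of them lower. The share of all genes at that p was not counted without this tumour, and with all arrays it was 23.3%. Without vehicle tumour 3 the log2 differences of the 6 genes were -0.86 for Evc2, -0.65 for Tulp3, -0.53 for Tmem231, -0.49 for Ift140, -0.44 for Dync2h1 and -0.46 for Ift74. Their limma adjusted p ran from 0.0686 to 0.212. With quantile normalization 5 of 47 genes passed, all of the 6 but Dync2h1, beside 6.72% of all genes. With the median of each array subtracted, Evc2 alone passed, and the calls over all genes shifted from 382 higher and 330 lower to 399 higher and 113 lower. With array weights estimated from these data 17 of 47 cilium genes were called, 14 lower and 3 higher, beside 30.6% of all genes. Vehicle tumour 1 then had a weight of 5.46, against 0.98 and 0.58 for vehicle tumours 2 and 3 and 0.37 to 1.67 for treated tumours. That count therefore rests mostly on 1 vehicle array.

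**Figure D1:**
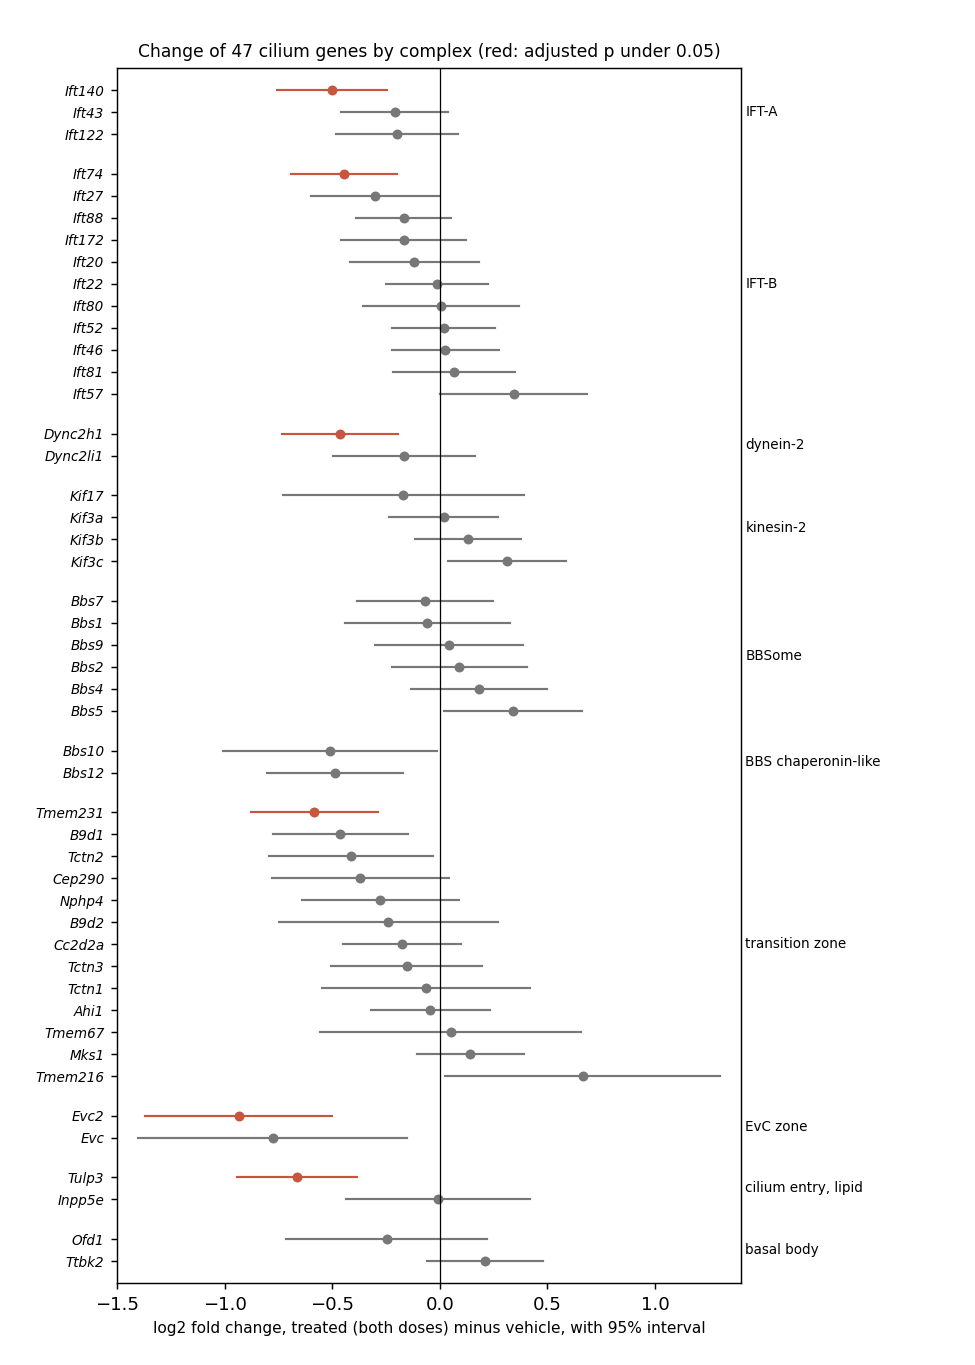
Log2 difference between treated tumours (mean of both doses) and vehicle tumours for the 47 cilium genes, grouped by complex; points are limma estimates, bars are 95% intervals, and red marks an adjusted p under 0.05. The 6 red points all lie below 0, from -0.45 for Ift74 to -0.93 for Evc2. Genes of the same complex spread on both sides of 0 in IFT-B, kinesin-2, the BBSome, the transition zone and the basal body.

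Evc and Evc2 form a membrane complex just above the transition zone that passes the signal from Smoothened toward the Gli proteins, and mutations in either cause Ellis-van Creveld syndrome. The Evc2 signal was 151, 200.1 and 201 in the 3 vehicle tumours. It ran from 59.1 through a median of 94.6 to 121 at 40 mg/kg, and from 59.5 through 102 to 163 at 160 mg/kg. All treated tumours but 160 mg/kg tumour 6, at 163, lay below every vehicle tumour. The group means were 184 ± 28.7 (SD, n = 3), 92.2 ± 20.1 (n = 8) and 102 ± 29.0 (n = 8), a fall by 0.93 on the log2 scale (SE 0.21, limma adjusted p = 0.0149), or 1.91-fold.

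Its partner Evc gave 172, 217 and 177 in the vehicle tumours. The signal ran from 31.5 through 126 to 154 at 40 mg/kg and from 82.3 through 106 to 163 at 160 mg/kg. The groups did not overlap, but the treated tumours spread widely, with 40 mg/kg tumour 5 at 31.5 and the next lowest of that dose at 96.4. The log2 difference was -0.78 (SE 0.30, limma adjusted p = 0.138), so Evc did not pass. A second and dimmer Evc probe set gave -0.42 (limma adjusted p = 0.432), with vehicle values from 28.2 to 80.6.

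Tulp3 carries G protein-coupled receptors and other membrane cargo into the cilium by binding both IFT-A and phosphoinositides. Its brightest probe set gave 668, 666 and 686 in the vehicle tumours. The treated tumours ran from 361 through 499 to 564 at 40 mg/kg and from 308 through 373 to 465.5 at 160 mg/kg. No treated tumour reached the vehicle range. The means were 673 ± 11 (SD, n = 3), 472 ± 78.3 (n = 8) and 389 ± 56.3 (n = 8), a fall by 0.66 on the log2 scale (SE 0.13, limma adjusted p = 0.00818), or 1.58-fold.

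The 3 Tulp3 probe sets did not give the same picture. A dim one gave 41.4 to 68.3 in vehicle tumours and 15.8 to 39.5 in treated ones, again without overlap, at a log2 difference of -0.79 that did not pass (limma adjusted p = 0.0619). The remaining one overlapped fully, with 79.0 to 106 in vehicle tumours and 49.9 to 126 in treated ones, and gave -0.13 (limma adjusted p = 0.730). Which part of the transcript each probe set reads was not analysed here. Inpp5e, the ciliary phosphatase that keeps the membrane lipid to which Tulp3 binds out of the cilium, was at 75.3 ± 28.5 (SD, n = 3) in vehicle tumours, 75.6 ± 8.38 (n = 8) at the lower dose and 68.6 ± 16.9 (n = 8) at the higher. Its log2 difference was -0.01, with a 95% interval from -0.44 to 0.42.

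**Figure D2:**
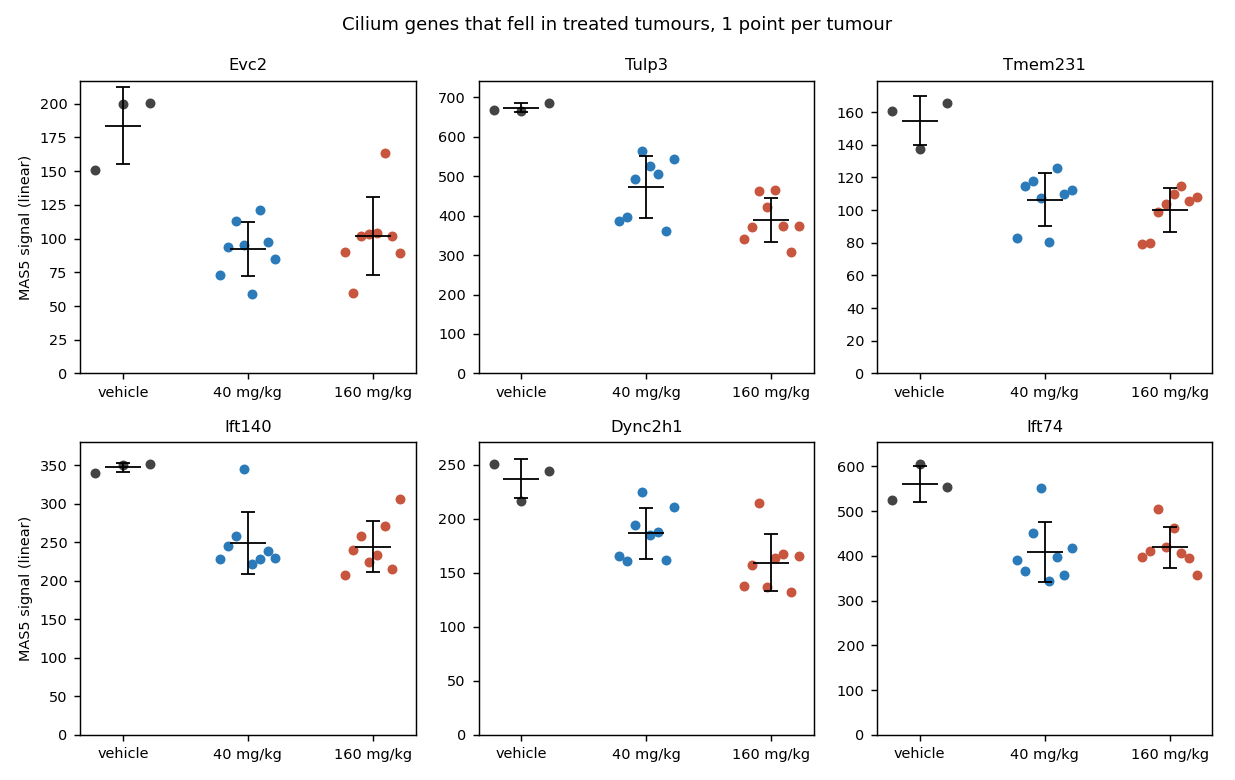
MAS5 signal (linear scale) of the 6 genes that fell, 1 point per tumour, in vehicle (n = 3), 40 mg/kg (n = 8) and 160 mg/kg (n = 8) tumours; horizontal marks are means and bars are SD. Tulp3 and Tmem231 show no overlap between vehicle and treated tumours, and each of the other panels has 1 treated tumour inside the vehicle range.

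Tmem231 is a membrane protein of the MKS module, which forms the ciliary gate together with the B9 proteins and tectonics. Its signal was 161, 138 and 166 in the vehicle tumours. It ran from 80.5 through 111 to 126 at 40 mg/kg and from 79.1 through 105 to 115 at 160 mg/kg. All 16 treated tumours lay below the lowest vehicle tumour. Tmem231 fell by 0.58 on the log2 scale (SE 0.14, limma adjusted p = 0.0245), from 155 ± 15.0 (SD, n = 3) to 106 ± 16.3 (n = 8) and 100.0 ± 13.5 (n = 8).

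The other 12 transition zone genes did not pass the test, and of all 13 genes 10 (76.9%, against 57.5% of all genes tested) lay below 0, with a median of -0.18 and a range from -0.58 to 0.66. B9d1, which sits with Tmem231 in the gate, was at 164, 174 and 190.2 in vehicle tumours and at 96.2 to 168 in treated ones, below every vehicle tumour in 14 of 16 (log2 difference -0.46, limma adjusted p = 0.0803). Tctn2, a tectonic, was at 59.8, 59.0 and 53.9 in vehicle tumours and below all of these in 14 of 16 treated tumours (-0.41, limma adjusted p = 0.197). The exceptions for Tctn2 were 40 mg/kg tumour 4, at 65.4, and 160 mg/kg tumour 5, at 55.6. The scaffold Cep290 had -0.37 (limma adjusted p = 0.283), Cc2d2a -0.18 (0.447), Ahi1, the Joubert syndrome protein jouberin, -0.04 (0.876), and Mks1 0.14 (0.508).

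The highest value in the transition zone, 0.66 for Tmem216, came from a single vehicle array. Its brighter probe set was at 110 and 125 in vehicle tumours 1 and 2 and at 22.8 in vehicle tumour 3, while treated tumours ran from 75.3 to 162. The second Tmem216 probe set, at 84.1 to 113 in vehicle tumours, gave -0.19, and neither passed (limma adjusted p = 0.216 and 0.425). Vehicle tumour 3 is the array that stood apart over all genes.

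Retrograde transport genes were represented by IFT-A and dynein-2, and each of the 5 genes lay below 0, as did 57.5% of all genes tested. Ift140, a core IFT-A subunit, was at 340, 350 and 352 in the vehicle tumours. It ran from 222 through 234 to 345 at 40 mg/kg and from 208 through 237 to 306 at 160 mg/kg. Only 40 mg/kg tumour 4, at 345, reached the vehicle range, and the next highest of its dose was at 259. Ift140 fell by 0.50 on the log2 scale (SE 0.12, limma adjusted p = 0.0256), from 347 ± 6.29 (SD, n = 3) to 250 ± 40.4 (n = 8) and 244 ± 32.7 (n = 8). The other IFT-A subunits, Ift43 (-0.21) and Ift122 (-0.20), did not pass (limma adjusted p = 0.312 and 0.405).

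Dync2h1 encodes the dynein-2 heavy chain, the motor that returns IFT trains to the cell body. Its signal was 251, 217 and 244 in vehicle tumours, 161 to 225 with a median of 186 at 40 mg/kg, and 132 to 214 with a median of 161 at 160 mg/kg. It lay below every vehicle tumour in 15 of 16 treated tumours, the exception being 40 mg/kg tumour 4, and fell by 0.46 on the log2 scale (SE 0.13, limma adjusted p = 0.0458). The light intermediate chain Dync2li1 was at 250 ± 25.2 (SD, n = 3), 230.4 ± 44.0 (n = 8) and 220.1 ± 43.0 (n = 8), a difference of -0.17 (limma adjusted p = 0.563).

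IFT-B, the complex that carries tubulin and other cargo outward, had 11 measured genes, with a median of -0.01. Ift74, which with Ift81 forms the tubulin-binding module, was at 525.8, 605 and 553 in vehicle tumours, 345 to 551 with a median of 393 at 40 mg/kg, and 356 to 506 with a median of 409 at 160 mg/kg. It fell by 0.45 (SE 0.12, limma adjusted p = 0.0355), again with 40 mg/kg tumour 4 as the only treated tumour inside the vehicle range. Its partner Ift81 was at 397 ± 34.3 (SD, n = 3), 426 ± 82.4 (n = 8) and 413 ± 54.4 (n = 8) on its brightest probe set, a difference of 0.07 with a 95% interval from -0.22 to 0.35. Further Ift81 probe sets gave -0.13 and, at a dim signal, -0.19, and did not pass (limma adjusted p = 0.576 and 0.752). A test of the difference between the partners was not run.

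The Ift27 subunit, a small GTPase that links IFT-B to the BBSome, had 3 probe sets at -0.30, -0.08 and -0.44, none of which passed (limma adjusted p = 0.229, 0.788 and 0.147). On the brightest, 13 of 16 treated tumours lay below the vehicle range of 573 to 691, and 160 mg/kg tumour 2, at 797, lay above it. Ift88, whose mutation is the classic way to remove cilia in mice, was at 115 ± 6.55 (SD, n = 3), 99.4 ± 9.09 (n = 8) and 106 ± 8.47 (n = 8), a difference of -0.17 with an interval from -0.39 to 0.05. Ift22, Ift46, Ift52 and Ift80 lay between -0.01 and 0.03. Ift57 had the highest value in IFT-B, 0.34 (limma adjusted p = 0.229), with 10 of 16 treated tumours above the vehicle range of 276 to 331 and 0 below it.

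Of the 4 kinesin-2 genes, which encode the outward motors, 0 passed the test and the median was 0.07. The heterotrimeric motor subunit Kif3a was at 408 ± 43.0 (SD, n = 3) in vehicle tumours, 424 ± 40.8 (n = 8) at the lower dose and 406 ± 65.8 (n = 8) at the higher on its brightest probe set. The difference was 0.02 with a 95% interval from -0.23 to 0.27. Further Kif3a probe sets gave -0.09, -0.25 and -0.04 and did not pass (limma adjusted p = 0.671, 0.276 and 0.900). On the probe set at -0.25, 15 of 16 treated tumours lay below all vehicle tumours and 1 above them. Kif3c, the neuronal partner of Kif3a, was higher than every vehicle tumour in 14 of 16 treated tumours on its brighter probe set, whose vehicle values were 199, 209 and 221. Its probe sets gave 0.31 and 0.53 and did not pass (limma adjusted p = 0.172 and 0.120). The summed signal of the neuron maturation genes given above moves the same way between the groups, and its part in the Kif3c values was not tested.

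The 6 BBSome genes lay between -0.07 and 0.34, with a median of 0.07, and 0 passed on their brightest probe set. Bbs4, the subunit that links the BBSome to centriolar satellites, had 4 probe sets, at 0.18, 0.21, 0.62 and 0.30. The third of these was at 49.6, 40.5 and 36.0 in vehicle tumours, and 14 of 16 treated tumours lay above all of these, from 45.8 to 96.8 over both doses (limma adjusted p = 0.0507). Bbs5 had 0.34 (limma adjusted p = 0.208) and Bbs1 -0.06 (0.885). Bbs10 and Bbs12, the chaperonin-like proteins that help assemble the BBSome, lay the other way. Bbs12 was at 128, 132 and 111 in vehicle tumours and at 65.6 to 114 in treated ones, below the lowest vehicle tumour in 15 of 16 (-0.49, limma adjusted p = 0.0680). The 2 probe sets of Bbs10 gave -0.51 and -0.56 (limma adjusted p = 0.224 and 0.127). Both genes therefore did not pass, and no test was made between them and the BBSome subunits.

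At the basal body, Ttbk2, the kinase that starts cilium assembly by removing the cap protein CP110 from the mother centriole, gave the only called rise among the 73 probe sets. That probe set was at 43.5, 41.0 and 34.8 in the vehicle tumours, 50.3 to 68.5 at 40 mg/kg (median 57.1) and 49.8 to 69.4 at 160 mg/kg (median 61.5). All 16 treated tumours lay above all vehicle tumours. The rise was 0.56 on the log2 scale (SE 0.13, limma adjusted p = 0.0166). It did not pass without vehicle tumour 2 (0.0581) or vehicle tumour 3 (0.144).

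The brightest probe set of Ttbk2 gave less, 0.21 (limma adjusted p = 0.355), with 180.2 ± 6.54 (SD, n = 3) in vehicle tumours and 213 ± 22.5 (n = 8) and 207 ± 32.8 (n = 8) at the lower and higher dose. The dimmest gave 0.43 (limma adjusted p = 0.537). Over probe sets, 7 of 73 (9.59%) were called, 6 lower and 1 higher, against 4.47% of all probe sets tested (1.83% lower and 2.64% higher). Ofd1, a centriolar satellite and distal centriole protein, had -0.25 (limma adjusted p = 0.541).

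**Figure D3:**
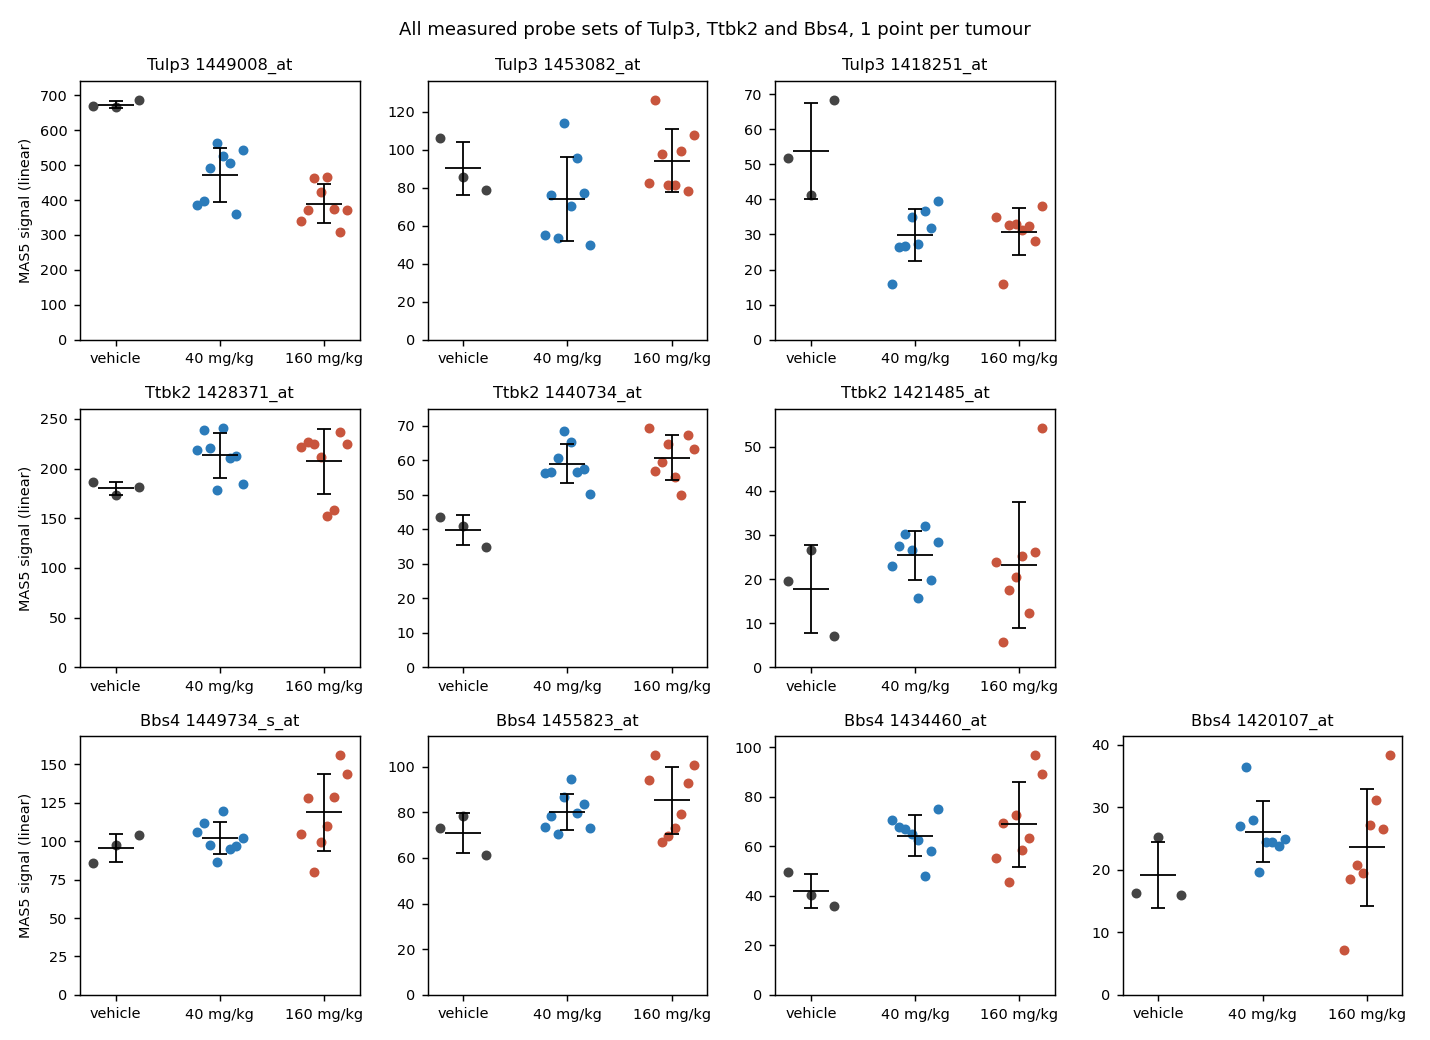
MAS5 signal (linear scale) on every measured probe set of Tulp3, Ttbk2 and Bbs4, 1 point per tumour, with mean and SD, in vehicle (n = 3), 40 mg/kg (n = 8) and 160 mg/kg (n = 8) tumours. For Tulp3, 2 of the 3 probe sets separate vehicle from treated tumours and the other does not, and for Ttbk2 only 1 of the 3 does; signals of different probe sets are not comparable.

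The doses were compared with vehicle separately, and both comparisons use the same 3 vehicle arrays. At 40 mg/kg 1 of 47 genes fell, Evc2 (2.13% of the cilium genes; 2.55% of all genes tested were called, 0.847% lower). At 160 mg/kg 5 of 47 fell, which were Dync2h1, Evc2, Ift140, Tmem231 and Tulp3 (10.6%; 4.89% of all genes were called, 2.45% lower). The log2 differences at 40 and 160 mg/kg were -0.99 and -0.87 for Evc2, -0.53 and -0.80 for Tulp3, -0.54 and -0.62 for Tmem231, -0.49 and -0.51 for Ift140, and -0.35 and -0.58 for Dync2h1. Ift74, at -0.47 and -0.42, passed at neither dose alone (limma adjusted p = 0.0566 and 0.0620).

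Leaving out single arrays changed these counts, and the calls over all genes moved with them. At 40 mg/kg the count was 0 when vehicle tumour 1, 2 or 3 was left out (11 to 12 genes at an unadjusted p under 0.05), with 0.71%, 0.567% and 0.472% of all genes called. The share of all genes at that unadjusted p was not counted there, and with all arrays it was 21%. The count was 4 when 40 mg/kg tumour 4 was left out (3.18% of all genes called), and 2 when 40 mg/kg tumour 8 or any of 160 mg/kg tumours 2, 3 and 8 was (2.75% to 3.6%). At 160 mg/kg it was 1 (Tulp3) without vehicle tumour 1 or 3, 2 (Tmem231 and Tulp3) without vehicle tumour 2 and 3 without 160 mg/kg tumour 1, with 1.84%, 0.945%, 2.02% and 3.94% of all genes called in turn.

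Between the doses themselves 0 of 47 genes passed in limma, as did 0 of all 13454 genes, and 3 of 47 had an unadjusted p under 0.05, beside 997 of all genes. The 3 were Kif3b, higher at 160 mg/kg by 0.27 (95% interval 0.07 to 0.47), Tulp3, lower by 0.27 (-0.49 to -0.05), and Dync2h1, lower by 0.23 (-0.44 to -0.01), each with a limma adjusted p of 0.674 or more. Kif3b, a motor subunit, was at 121 ± 7.57 (SD, n = 8) at 40 mg/kg and 147 ± 19.9 (n = 8) at 160 mg/kg, and its 3 further probe sets gave 0.05 to 0.24 between doses. For Tulp3 the probe set on which vehicle and treated tumours overlapped fully went the other way, with 0.37 between doses. The dimmest Tulp3 probe set gave 0.05 between doses. For Evc2 the interval of the dose difference ran from -0.22 to 0.47, for Tmem231 from -0.32 to 0.15 and for Ift140 from -0.23 to 0.18.

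The tumours were not alike in how many cilium genes were low. Of the 47 genes, 15 to 27 lay below all vehicle tumours in each treated tumour except 40 mg/kg tumour 4, where 9 did. These counts come to 31.9% to 57.4% of the cilium genes, and 19.1% in 40 mg/kg tumour 4, against 31.7% to 39.8% of all genes tested over the treated tumours and 34.3% in that tumour. In 160 mg/kg tumours 2, 3, 5 and 8 the share of cilium genes did not exceed that of all genes. Of the 6 fallen genes, 3 lay below the vehicle range in 40 mg/kg tumour 4, 5 in 160 mg/kg tumour 6 and all 6 in the remaining 14 treated tumours. Tumour 4 of the 40 mg/kg group had the lowest summed signal of neuron maturation genes among treated tumours (9051). It also had the highest of astrocyte markers (3782, against 1061 to 1818 in vehicle tumours). The astrocyte sum was close to this in 40 mg/kg tumour 1 (3474) and 160 mg/kg tumours 3 (3478) and 7 (3207). In these 3 tumours 25, 15 and 27 cilium genes in turn lay below all vehicle tumours. The part of these marker sums in the cilium gene values was not tested.

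Several further genes were singled out in 40 mg/kg tumour 4 after their values were seen. Ofd1 was at 62.1 there, at 258 in 40 mg/kg tumour 8 and at 129 to 158 in the other tumours of that dose, against 163 to 184 in vehicle tumours. Ift57 was at 550.0 there and at 592 in 40 mg/kg tumour 5, against 276 to 331 in vehicle tumours. The tectonic Tctn1 was at 117 there, against 60.2 to 76.4 in vehicle tumours, and Mks1 at 159, against 91.7 to 113. These are single tumours, and they are given as a description with no test.

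**Figure D4:**
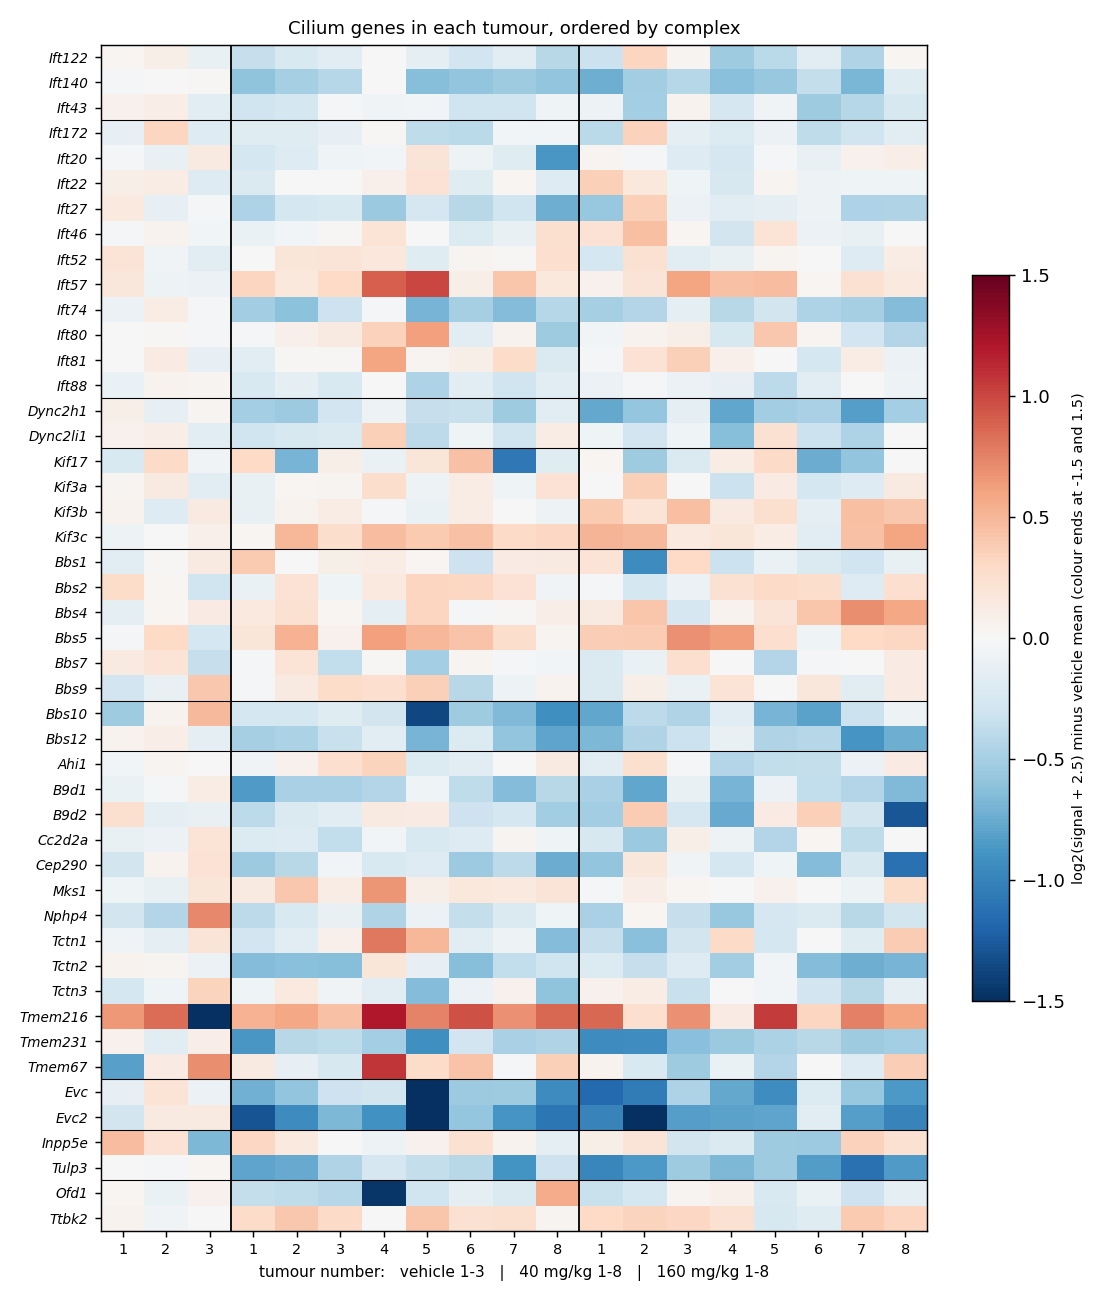
Log2(signal + 2.5) of the 47 cilium genes in each of the 19 tumours, minus the mean of the 3 vehicle tumours; rows are ordered by complex, vertical lines part the groups, blue is below and red above the vehicle mean, and the colour ends at -1.5 and 1.5. The rows of Evc2, Evc, Tulp3, Tmem231, Ift140 and Ift74 are blue in nearly all treated tumours, and Tmem216 is low in vehicle tumour 3. Several genes in 40 mg/kg tumour 4 differ from most other treated tumours, among them Ift140, Ift74, Ofd1, Tctn1 and Tmem67.

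Cilium genes varied less between tumours than genes at large. The median SD on the log2 scale was 0.15 in vehicle tumours for the 47 genes, 0.22 at the lower dose and 0.24 at the higher, against 0.20, 0.27 and 0.33 over all genes tested. This is a description, since brightness was not matched. Within the treated groups the widest range was that of Evc, 4.89-fold at 40 mg/kg, and B9d2, the binding partner of B9d1, had a 3.27-fold range at 160 mg/kg. In vehicle tumours the range of Tmem216 was 5.50-fold, through vehicle tumour 3. The 95% intervals of the treated against vehicle differences reached a median of 0.31 to each side, from 0.22 to 0.64. For 23 of the 41 genes that did not pass, the whole interval lay within 0.5 of 0 on the log2 scale, and for the others a change of that size is not excluded.

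Other genes of the ciliary pathway were taken from lists by function. Over all genes tested 2.45% fell, 2.84% rose and 23.3% had an unadjusted p under 0.05 in limma. Of 16 further genes of IFT, BBS transport and the motors 0 rose and 1 fell (4 at an unadjusted p under 0.05), with a median of -0.23. The gene that fell was Ttc30a1, an IFT-B subunit, from 189 ± 22.8 (SD, n = 3) to 121 ± 20.3 (n = 8) and 130.3 ± 19.4 (n = 8), by 0.59 (SE 0.15, limma adjusted p = 0.0262), with all 16 treated tumours below all vehicle tumours. The dynein-2 intermediate chain Wdr60 had -0.68 and did not pass (limma adjusted p = 0.0711).

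Of 13 further transition zone and inversin compartment genes 0 rose and 2 fell (3 at an unadjusted p under 0.05), with a median of -0.20. Tmem107, which recruits other MKS proteins to the gate, fell by 0.52 (SE 0.13, limma adjusted p = 0.0263), from 829.5 ± 17.2 (SD, n = 3) to 588 ± 105 (n = 8) and 580.4 ± 86.2 (n = 8). The ciliary kinase Nek8 fell by 0.79 (SE 0.22, limma adjusted p = 0.0481) at a low signal, 60.2 ± 18.3 (SD, n = 3) in vehicle tumours. Of 20 basal body and centriole genes 0 were called, with a median of -0.23. An unadjusted p under 0.05 was reached by 7 of the 20, against 23.3% of all genes tested. The smallest p belonged to Sclt1, a distal appendage protein (-0.36, limma adjusted p = 0.0993), and Cenpj (-0.43, 0.107).

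Among 17 genes of ciliary GTPases and membrane traffic 1 rose and 0 fell (2 at an unadjusted p under 0.05), with a median of 0.08. Unc119, which carries lipid-modified proteins into cilia and photoreceptor outer segments, rose by 0.83 (SE 0.12, limma adjusted p = 0.000999). It was at 85.5 ± 13.4 (SD, n = 3) in vehicle tumours, 149 ± 18.3 (n = 8) at the lower dose and 159 ± 16.4 (n = 8) at the higher, with all 16 treated tumours above all vehicle tumours. Rab11a, which delivers membrane to the growing cilium, had 0.17 (limma adjusted p = 0.197).

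Of 5 measured transcription factors of the RFX family, some of which switch on cilium genes, 0 were called (0 at an unadjusted p under 0.05), with a median of -0.28, Rfx5, better known for MHC class II promoters, at -0.28 and the ciliogenesis factor Rfx3 at -0.29 (limma adjusted p = 0.306 and 0.380), while Rfx2 and Foxj1 were too dim to test. Of 8 genes of cilium disassembly 0 were called (1 at an unadjusted p under 0.05), with a median of -0.07, the tubulin deacetylase Hdac6 at 0.37 and Kif24 at -0.38 (limma adjusted p = 0.223 and 0.233). Of 11 core genes of the Hedgehog pathway that works through the cilium 0 rose and 1 fell (5 at an unadjusted p under 0.05), with a median of -0.59. That was the coreceptor Gas1, which fell by 1.03 (SE 0.25, limma adjusted p = 0.0225), and Sufu, the cytoplasmic brake on Gli, had -0.48 and did not pass (limma adjusted p = 0.0611). The median over all genes tested was -0.06, and 23.3% of them had an unadjusted p under 0.05 in limma.

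The genes whose promoters hold the paired RFX site were Ahi1, Bbs7, Ift57, Mks1, Tctn1 and Tctn3, and 0 of these 6 fell. Their log2 differences had a median of -0.05 and ran from -0.15 to 0.34. Of the 36 genes with a promoter entry and no such site 6 fell, with a median of -0.17. Over all genes tested 2.45% fell and the median was -0.06. No test was made between genes with and without the site, and 6 genes are too few to tell them apart. Of the 6 genes that fell, 3 had the single arm (Dync2h1, Ift140 and Tmem231), as did 19 of the other 36 genes, and 1 had the looser paired spelling (Tmem231). The GLI site GACCACCCA, the letters bound by the Hedgehog-driven Gli factors, was in 0 of 42 of these promoter windows and in 0.289% of those of all genes. A match is a description of letters, not of binding.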

How the data were processed

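The authors deposited linear signal intensities from MAS5, per the submitters' processing notes. The sources used here do not give the scaling target, and without detection calls or scan dates no batch could be tested. The series text names the 430A 2.0 array, while the table's 45101 probe sets are those of the full-genome Mouse 430 2.0 annotation. Of 45037 probe sets that are not controls, 34945 had 1 gene symbol, 932 several and 9160 none; genes were named from single symbols, all 80 cilium probe sets matched the GRCm38.p6 gene table by Entrez identifier, and some items are not reported here.

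Signals were taken as log2(signal + 2.5), and fold changes on this scale understate those of dim genes. A probe set was kept if 3 or more arrays had it above their 40th percentile. One limma fit (3.58.1, R 4.3.3; lmFit, eBayes with a variance trend) of 3 group means over 19 arrays left 16 residual degrees of freedom. P-values are two-sided, Benjamini-Hochberg adjusted over 31143 probe sets. A gene is represented by its kept probe set with the highest mean log2 value; 16 genes had several. Named genes were those with a called probe set and the 8 others with the smallest p, and from each list the called genes and the 2 with the smallest p; other genes are named to complete a complex. Members and lists were chosen with earlier results of these data known. Promoters were searched in Python 3.11.15. Pairwise correlations of arrays ran from 0.908 to 0.963, with 0 identical pairs. Alternatives were other scalings, pseudocounts, filters, variance models, array weights, a replicate block, the compared groups alone, gene means, and leaving out arrays.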

Additional observations from a re-analysis of the deposited data

Results flagged for a closer look

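In 54 groups of 8 treated tumours, 5 tumours lay far from the others of their dose on a cilium probe set, where chance gives about 1 in 20. The brightest Evc probe set was at 31.5 in 40 mg/kg tumour 5, with the next lowest at 96.4. Ift140 was at 345.3 in 40 mg/kg tumour 4, with the next highest at 258.5, so that tumour alone lay within the vehicle range of this gene. The dimmest Bbs4 probe set was at 7.2 in 160 mg/kg tumour 1, with the next lowest at 18.5. The dim Tulp3 probe set was at 15.8 in 40 mg/kg tumour 1, with the next lowest at 26.5, and also at 15.8 in 160 mg/kg tumour 2, with the next lowest at 28.1.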

How the results depend on the processing

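In treated against vehicle tumours 6 genes were called, beside 5.29% of all genes. Quantile normalization gave 5 (6.72% of all genes called). Array median subtraction gave 1 (3.81% of all genes called), array weights 17 (30.6%) and the replicate block 3 (3.25%), which were Evc2, Tmem231 and Tulp3. Leaving out vehicle tumour 3 with 160 mg/kg tumour 2, chosen after seeing the data, gave 0 (1.12%). Leaving out single arrays gave 0 to 6 (0.937% to 6.42%). At 40 mg/kg, against 1 (2.55% of all genes called), quantile normalization gave 3 (3.5%), the filter at the 60th percentile 5 (4.02%) and array weights 14 (25.7%). The replicate block gave 2 (1.27%), the compared groups alone 3 (5.92%) and gene means 2 (2.22%). Both arrays left out gave 0 (0.717%), and single arrays left out gave 0 to 4 (0.472% to 3.6%). At 160 mg/kg, against 5 (4.89%), median subtraction gave 1 (3.85%), array weights 17 (21.3%) and the replicate block 3 (3.43%). The compared groups alone gave 1 (2.56%), both arrays left out 1 (0.982%), and single arrays left out 1 to 6 (0.945% to 5.95%). Between doses the count was 0 under every alternative run. With medians subtracted, the share of all calls that were lower went from 46.3% to 22.1% over both doses, from 33.2% to 13.4% at 40 mg/kg and from 50% to 26.3% at 160 mg/kg. Same-numbered arrays showed no strong shared deviation (correlations -0.128 to 0.0904). This cannot decide whether their numbers pair them, since a weak shared effect need not show in it. Of the named values, 0 changed sign where called; 58 lost and 18 gained a call when single arrays were left out, and 45 lost and 65 gained one under the other alternatives. The cause of these changes was not tested. With 3 vehicle arrays, a change under about 0.31 on the log2 scale lies within the median interval, and dim probe sets such as those of Nek8 and Tmem67 carry the least signal over background.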
